A study of Mus musculus with 96 samples.

Results

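The squalene to cholesterol arm comprises the genes of 9 enzymes, Fdft1, Sqle, Lss, Cyp51, Msmo1, Nsdhl, Hsd17b7, Sc5d and Dhcr7, out of 25095 gene symbols measured in mouse liver cells. They were chosen by name, for their place in cholesterol synthesis, and each was represented by its most abundant RefSeq transcript on average. Earlier results of these data were known when the genes were chosen. RNA sequencing had been performed on 96 libraries, 48 of isolated hepatocytes and 48 of liver macrophages, with 3 libraries for each cell type, genotype and zeitgeber time (ZT, counted in hours from lights on, with darkness from ZT12). The time points were ZT4, ZT10, ZT16 and ZT22. Values are RPKTM, which is RPKM, reads scaled to transcript length and library size, multiplied by 10, and they had been quantile normalized. RPKTM may thus be compared between genes, since it is a level per kb.

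Cholesterol is built from acetyl-CoA, first by the mevalonate enzymes and then by the arm described here, which starts with the joining of farnesyl units into squalene. Squalene is oxidized and folded into lanosterol, and the later enzymes remove methyl groups, move double bonds and reduce the sterol until cholesterol is formed. The genes of the arm are classical targets of SREBP2, a membrane-bound transcription factor. SCAP carries SREBPs from the endoplasmic reticulum to the Golgi, where they are cleaved, and INSIG proteins hold SCAP back when sterols are abundant. The liver is a main site of this synthesis, and REV-ERBα and REV-ERBβ, encoded by Nr1d1 and Nr1d2, are nuclear receptors that repress transcription within the circadian clock.

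All mice were male, adult and of strain C57BL/6J, and all had eaten a high fat, high sucrose diet over 4 weeks. Floxed mice received a virus in which the hepatocyte-specific TBG promoter drove either GFP, in Control mice, or Cre, in knockout mice, so that the controls carried floxed alleles and virus too. RevDKO mice (genotype label ReverbhDKO) were labelled as lacking both REV-ERBs in hepatocytes, RevScapTKO mice (Reverb/ScaphTKO) as lacking both REV-ERBs and SCAP, and ScapKO mice (ScaphKO) as lacking SCAP alone. The promoter directed the deletion to hepatocytes, so the macrophages came from mice with altered hepatocytes and were not themselves the target. Control, RevDKO and RevScapTKO libraries shared 1 table per cell type (36 libraries), whereas the ScapKO libraries were normalized apart (12 libraries per cell type) and had no controls within their tables. The labels of the 12 ScapKO libraries titled Hep conflict, since their cell type field reads liver macrophage. These libraries were taken as hepatocytes, and their summed hepatocyte markers were 414255 to 1330108 RPKTM, against 18602 to 139708 in the ScapKO macrophage libraries. The study's methods call the RNA samples biological replicates, and the labels do not say which mouse each library came from.

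The members lie on 9 chromosomes. In build mm9, as the tables give it, the transcripts span chr14:63763988-63798415 (Fdft1, NM_010191, minus strand), chr15:59146647-59162748 (Sqle, NM_009270, plus), chr10:75994350-76019884 (Lss, NM_146006, plus), chr5:4080674-4104697 (Cyp51, NM_020010, minus), chr8:67196920-67212375 (Msmo1, NM_025436, minus), chrX:70163860-70203867 (Nsdhl, NM_010941, plus), chr1:171879668-171899336 (Hsd17b7, NM_010476, minus), chr9:42062260-42072383 (Sc5d, NM_172769, minus) and chr7:151009072-151034315 (Dhcr7, NM_007856, plus). The same transcript represented each gene in all 4 tables.

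Because the members moved together, their promoters are shown for the letters that SREBP target promoters commonly hold beside the sterol response element: CCAAT, the core of the NF-Y motif, and GGGCGG, the core of the Sp1 motif. RefSeq promoter windows (build GRCm38.p6, 250 bases before to 50 after a gene's start) were given for 7 of the 9 members, and were not used here for Fdft1 and Sqle. The windows of Cyp51 and Nsdhl, from genes among the strongest falls reported below, and of Hsd17b7 and Sc5d, the pair with the weakest, are printed from 5′ to 3′ on the gene's strand. Capitals mark CCAAT or its reverse complement ATTGG and GGGCGG or its reverse complement CCGCCC.
Cyp51 (chr5:4104648-4104947, minus strand): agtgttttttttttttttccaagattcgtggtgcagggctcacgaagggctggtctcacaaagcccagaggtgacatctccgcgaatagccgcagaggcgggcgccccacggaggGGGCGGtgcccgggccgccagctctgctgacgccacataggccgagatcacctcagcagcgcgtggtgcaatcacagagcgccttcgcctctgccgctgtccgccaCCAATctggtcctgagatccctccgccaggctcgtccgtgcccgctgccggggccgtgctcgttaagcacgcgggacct
Nsdhl (chrX:72918271-72918570, plus strand): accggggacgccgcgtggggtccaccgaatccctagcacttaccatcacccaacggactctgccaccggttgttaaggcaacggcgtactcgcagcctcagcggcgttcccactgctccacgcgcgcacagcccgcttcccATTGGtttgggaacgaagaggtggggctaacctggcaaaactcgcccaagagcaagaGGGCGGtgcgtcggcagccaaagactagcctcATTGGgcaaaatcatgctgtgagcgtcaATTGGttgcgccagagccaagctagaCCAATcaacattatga
Hsd17b7 (chr1:169969156-169969455, minus strand): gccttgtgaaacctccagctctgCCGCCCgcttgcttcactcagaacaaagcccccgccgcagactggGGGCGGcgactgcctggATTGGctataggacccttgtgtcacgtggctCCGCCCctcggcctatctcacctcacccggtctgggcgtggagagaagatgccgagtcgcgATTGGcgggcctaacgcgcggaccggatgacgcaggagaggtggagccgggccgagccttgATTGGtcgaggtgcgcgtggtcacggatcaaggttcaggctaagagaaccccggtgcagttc
Sc5d (chr9:42264251-42264550, minus strand): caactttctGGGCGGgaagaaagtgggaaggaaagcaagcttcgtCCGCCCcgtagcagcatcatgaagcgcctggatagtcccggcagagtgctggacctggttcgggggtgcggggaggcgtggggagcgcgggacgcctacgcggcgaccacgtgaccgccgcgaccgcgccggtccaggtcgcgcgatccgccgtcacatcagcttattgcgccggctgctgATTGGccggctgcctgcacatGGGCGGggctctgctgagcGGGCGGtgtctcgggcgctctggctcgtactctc

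CCAAT occurred on either strand in a window of 7 of 7 members, against 37.4% of all 32851 windows, and GGGCGG also in 7 of 7, against 35.7%. Nsdhl held 4 matches of CCAAT and Sc5d held 4 of GGGCGG, whereas the Cyp51 window held 1 of each. The E-box CACGTG, a palindrome that the clock activators bind, was found for Hsd17b7, Sc5d and Dhcr7, against 7.15% of all windows. TCACNCCAC, a form of the sterol response element, was in 0 of 7 members and in 1.24% of all windows. Other forms of the sterol response element were not searched. Dhcr7 had more than 1 window, so it had more chances of a match. These are matches of letters only, and the windows with the strong and the weak responses both held CCAAT and GGGCGG.

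Several libraries stood apart from their labels or groups. In hepatocytes labelled RevDKO, Nr1d1 was higher than in Control (log2 difference 1.55, limma adjusted p = 8.87e-05) and Nr1d2 was not called (0.62, limma adjusted p = 0.0626), so the targeted transcripts went against the label. In RevScapTKO hepatocytes both were higher than in Control, Nr1d1 by 1.79 (limma adjusted p = 2.13e-06) and Nr1d2 by 0.95 (limma adjusted p = 0.000318), which also went against the label. The deleted exons are not given in the sources used here, so a whole-transcript value may include reads outside them. Arntl, a REV-ERB target, encodes the clock activator BMAL1. It was above all 12 Control hepatocyte libraries in 11 of 12 RevDKO and in 4 of 12 RevScapTKO hepatocyte libraries. Compared within each time point, all 3 RevDKO libraries were above all 3 Control libraries at ZT4, ZT10, ZT16 and ZT22. All 3 RevScapTKO libraries were above Control at ZT4, ZT10 and ZT16. At ZT22, 2 of 3 were above all Control libraries and 1 was below all of them. Scap was lower in RevScapTKO than in RevDKO hepatocytes by a log2 difference of -1.40 (limma adjusted p = 9.77e-09), and the library labelled ScapKO hepatocyte ZT22 replicate 2 held the highest Scap value of its table (1006 against 205 to 380 in the other 11). Summed hepatocyte markers exceeded 1000000 RPKTM in 5 hepatocyte libraries (1 Control and 4 RevScapTKO) and 500000 in 3 macrophage libraries (2 Control and 1 RevScapTKO). The results below were also computed without these libraries. Such sums are dominated by the largest markers, so they do not by themselves show hepatocyte content. In Control macrophage libraries Alb reached 1606981 RPKTM (median 73347) and Apob 793013 (19121), whereas Hnf4a reached 327 (216). In Control and in RevScapTKO hepatocyte libraries Alb reached 838976 (median 373328 in each). In Control, RevDKO and RevScapTKO macrophage libraries the summed hepatocyte markers had medians of 86976 to 99017 RPKTM and the macrophage markers of 9281 to 18163, whereas in ScapKO macrophage libraries the medians were 52818 and 122820. In what follows, each genotype name means the libraries so labelled.

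In Control hepatocytes all 9 members were well expressed. Sc5d, the desaturase that makes the second last sterol of its branch, was the most abundant per kb, with a median of 1414 RPKTM over 12 libraries, followed by the lanosterol demethylase Cyp51 (667) and the sterol methyl oxidase Msmo1 (560). The squalene epoxidase Sqle (377), lanosterol synthase Lss (337), squalene synthase Fdft1 (328), the keto reductase Hsd17b7 (292) and the final reductase Dhcr7 (274) came next, and the sterol dehydrogenase Nsdhl was lowest (186). Every member's range overlapped that of its neighbour in this order.

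All 9 genes were lower in RevScapTKO hepatocytes than in RevDKO hepatocytes, a comparison of genotypes that by their labels differ in SCAP. The falls in the mean over the day ran from 2.58-fold for Sc5d to 43.9-fold for Sqle on the log2(RPKTM + 1) scale. In bulk samples fewer cells of a type and less RNA per cell cannot be told apart. With limma over 13326 genes and Benjamini-Hochberg adjustment, 9 of 9 members were lower at an adjusted p under 0.05, against 12.7% of all genes, and the members' median log2 difference was -2.48 against -0.03 over all genes. At single time points 36 of 36 member and ZT pairs were called lower (2.13% of all pairs), with log2 differences from -6.13 to -1.09. For 8 of 9 members, Sc5d being the exception, all 12 RevScapTKO libraries lay below all 12 RevDKO libraries (0.69% of all genes).

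**Figure D1:**
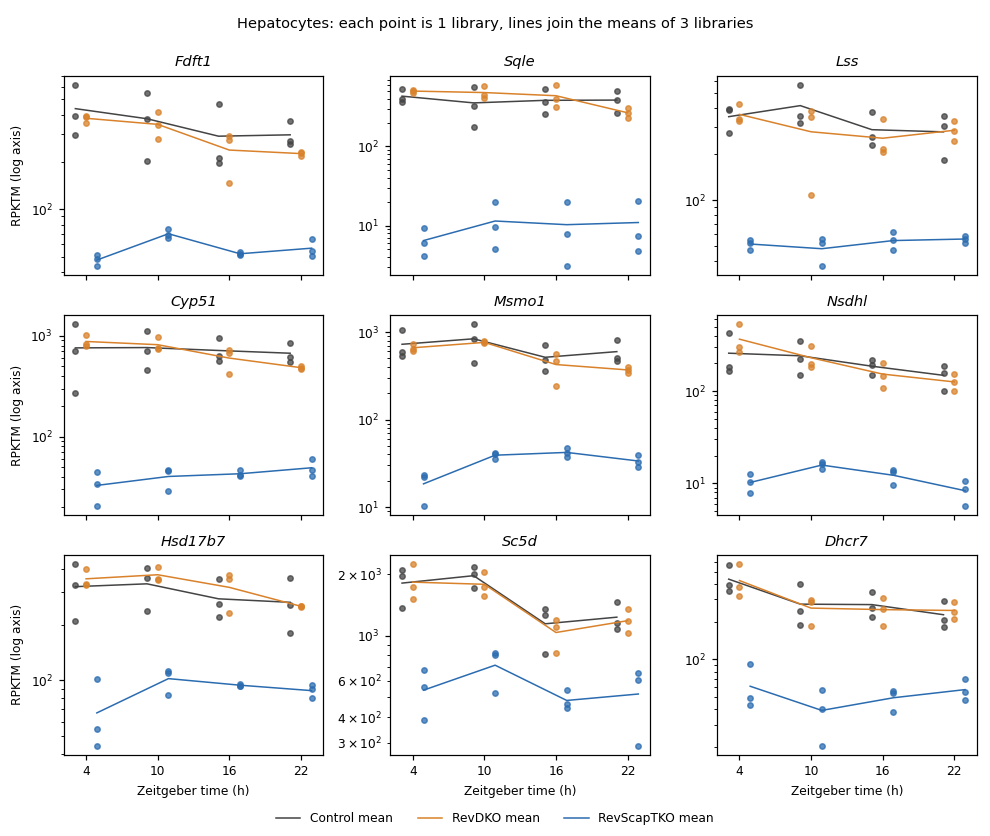
RPKTM (log axis) of the 9 members in each hepatocyte library by ZT, coloured by genotype (Control, RevDKO and RevScapTKO), with lines joining the means of 3 libraries. RevScapTKO libraries lie far below the other genotypes for Sqle, where they reach at most 20.6, and come closest for Sc5d, where the highest value is 824.

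Fdft1 encodes squalene synthase, which commits farnesyl units to sterols. Its RevScapTKO values were 51.2, 43.4 and 48.1 RPKTM at ZT4, 68.9, 65.9 and 74.8 at ZT10, 51.4, 51.6 and 53.4 at ZT16 and 50.2, 54.5 and 65.1 at ZT22. In RevDKO hepatocytes Fdft1 ranged from 146 to 418 with a median of 287. The groups did not overlap, and the RevScapTKO mean was 5.05-fold lower (log2 -2.33, SE 0.15, limma adjusted p = 1.33e-13).

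Sqle, which adds oxygen to squalene and is a slow step of sterol synthesis, showed the largest fall. RevScapTKO values were 9.26, 4.16 and 5.95 RPKTM at ZT4, 9.56, 19.5 and 5.09 at ZT10, 3.04, 7.82 and 19.9 at ZT16 and 7.39, 20.6 and 4.71 at ZT22. RevDKO values ran from 231 through a median of 431 to 604. The highest RevScapTKO library was therefore far below the lowest RevDKO library, and high RevScapTKO values occurred singly at ZT10, ZT16 and ZT22. The log2 difference was -5.46 (SE 0.24, limma adjusted p = 6.32e-18), and with a pseudocount of 10 in place of 1 it was -4.45.

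Lss folds oxidized squalene into lanosterol, the first sterol. Its RevScapTKO libraries were tight, from 36.9 to 61.5 with a median of 53.7, whereas RevDKO libraries ranged from 108 to 424 with a median of 328. The fall was 5.30-fold (log2 -2.41, SE 0.16). The RevDKO ZT10 replicate 2 library, at 108, was the lowest of its group by far.

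Cyp51 removes a methyl group from lanosterol as a cytochrome P450. Its RevScapTKO values were 44.3, 20.5 and 33.6 RPKTM at ZT4, 28.6, 45.9 and 46.3 at ZT10, 46.2, 41.2 and 41.1 at ZT16 and 46.5, 40.8 and 60.1 at ZT22, against 417 to 1014 (median 726) in RevDKO. No libraries overlapped, and the mean was 16.4-fold lower (log2 -4.03, SE 0.18).

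Msmo1 and Nsdhl act in turn to take off further methyl groups from the sterol ring. Msmo1 in RevScapTKO was 23.2, 10.3 and 21.9 RPKTM at ZT4, 35.1, 41.6 and 40.9 at ZT10, 37.2, 47.4 and 41.9 at ZT16 and 28.9, 32.6 and 39.5 at ZT22. In RevDKO it was 632, 738 and 612 at ZT4, 782, 741 and 762 at ZT10, 468, 565 and 243 at ZT16 and 372, 337 and 399 at ZT22. The 3 RevScapTKO libraries of ZT4 were the lowest of their genotype, whereas in RevDKO the low libraries were at ZT16 and ZT22. The mean of Msmo1 fell 16.2-fold (log2 -4.01, SE 0.16, limma adjusted p = 9.17e-19).

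Nsdhl was 12.6, 10.3 and 7.83 RPKTM at ZT4, 17.0, 14.3 and 16.1 at ZT10, 9.56, 13.9 and 13.3 at ZT16 and 10.7, 5.69 and 8.66 at ZT22 in RevScapTKO. In RevDKO it ranged from 101 to 529 with a median of 190, the top value being in the ZT4 replicate 2 library. Groups were separate, with a 16.04-fold lower mean (log2 -4.00, SE 0.17). This fold moved with the pseudocount, to a log2 difference of -3.26 with a pseudocount of 10.

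The last 3 genes fell less than Sqle, Cyp51, Msmo1 and Nsdhl. Hsd17b7, the keto reductase that works with Msmo1 and Nsdhl, had a RevScapTKO median of 93.7 (44.6 to 113) against 341 (230 to 410) in RevDKO, a 3.69-fold fall (log2 -1.88, SE 0.13). Dhcr7, whose product is cholesterol, had a RevScapTKO median of 51.5 (20.6 to 91.5) against 286 (183 to 575), a 5.60-fold fall (log2 -2.48, SE 0.16). Both were separate between the genotypes.

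Sc5d in RevScapTKO was 678, 387 and 559 RPKTM at ZT4, 806, 521 and 824 at ZT10, 540, 465 and 441 at ZT16 and 607, 290 and 658 at ZT22. In RevDKO it was 1733, 2241 and 1506 at ZT4, 2054, 1567 and 1727 at ZT10, 1188, 1096 and 824 at ZT16 and 1031, 1175 and 1344 at ZT22. The groups touched at 824, which was both the highest RevScapTKO and the lowest RevDKO value. The fall was the smallest of the arm (log2 -1.37, SE 0.13, limma adjusted p = 2.06e-09), with a 95% confidence interval of -1.63 to -1.11 that lay above those of all other members but Hsd17b7, whose interval was -2.15 to -1.61. With these unequal falls the order of levels changed. In RevScapTKO hepatocytes Sc5d (549) was followed by Hsd17b7 (93.7), Lss (53.7), Fdft1 (52.5), Dhcr7 (51.5), Cyp51 (42.8), Msmo1 (36.2), Nsdhl (11.6) and Sqle (7.604), and Sc5d was separate from every other member.

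Compared with Control hepatocytes, RevScapTKO hepatocytes were lower for 9 of 9 members as well (18.7% of all genes). This comparison used the same RevScapTKO libraries. The log2 differences were -5.33 for Sqle, -4.28 for Msmo1, -4.04 for Cyp51, -4.00 for Nsdhl, -2.600 for Lss, -2.53 for Fdft1, -2.52 for Dhcr7, -1.74 for Hsd17b7 and -1.44 for Sc5d, with a median of -2.600 against -0.04 for all genes. All 36 member and ZT pairs were called lower (4.18% of all pairs), and again 8 of 9 members, all but Sc5d, had all 12 RevScapTKO libraries below all 12 Control libraries (0.765% of all genes).

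**Figure D2:**
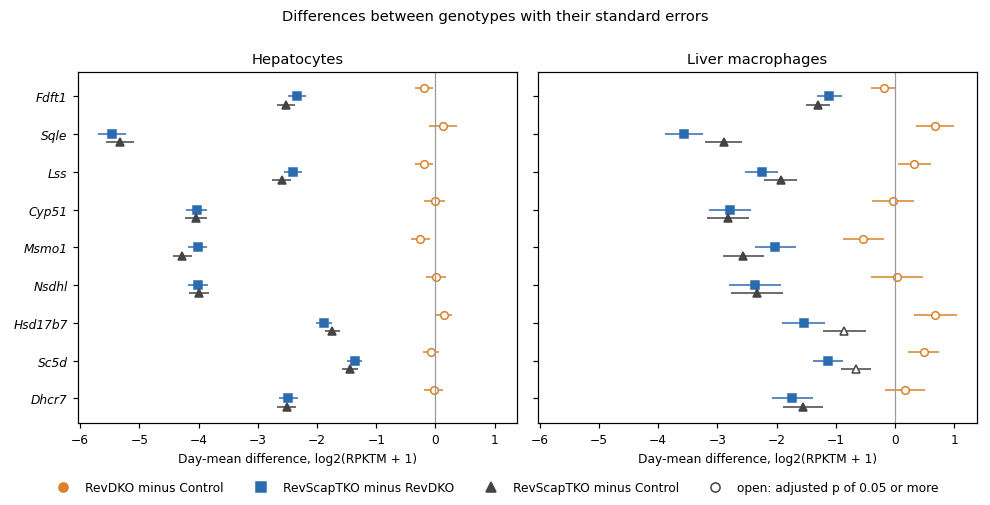
Log2 difference of the mean over the day (limma on log2(RPKTM + 1), with standard error bars) for the 9 members in each comparison and both cell types, open symbols marking an adjusted p of 0.05 or more. RevDKO minus Control lies between -0.54 and 0.68, whereas both RevScapTKO comparisons lie below 0, reaching -5.46 for Sqle in hepatocytes and -3.57 in macrophages.

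No member was called different between the hepatocyte libraries labelled RevDKO and Control. In RevDKO minus Control hepatocytes, 0 of 9 members passed an adjusted p of 0.05 by limma, against 4.43% of all genes. An unadjusted p under 0.05 was found for 0 of 9 members and for 2242 of 13326 genes. The log2 differences lay between -0.26 for Msmo1 (95% confidence interval -0.58 to 0.06) and 0.14 for Hsd17b7 (-0.12 to 0.41), and the widest interval was that of Sqle (-0.35 to 0.60). The smallest adjusted p by limma was 0.442. At single time points 0 of 36 pairs were called (0.64% of all pairs), and 1 had an unadjusted p under 0.05 (756 to 1270 of 13326 genes per time point). Median levels lay close, for example 667 in Control and 726 in RevDKO for Cyp51 and 560 and 589 for Msmo1. Control libraries spread widely, with Cyp51 between 269 and 1301 and both extremes at ZT4.

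Markers of 3 other kinds of liver cell, of 5 measured, moved with the RevScapTKO genotype in hepatocyte libraries. The 11 macrophage markers were all higher than in RevDKO and than in Control, and their sum was 979 to 6373 RPKTM (median 3014) in RevScapTKO, 408 to 2483 (1117) in RevDKO and 245 to 3228 (903) in Control. The sums for 4 stellate markers were 1365 to 3262, 640 to 1569 and 187 to 1724 in the same order, with 4 of 4 markers called higher in both comparisons. Of 4 endothelial markers, 3 were called higher than in RevDKO and 4 higher than in Control, with sums of 991 to 2455, 637 to 1609 and 349 to 2013. Cholangiocyte and lymphocyte markers were near the floor. Their sums had medians of 1.52 and 1.53 RPKTM in RevScapTKO, 2.93 and 1.17 in RevDKO and 1.34 and 1.25 in Control. Of all genes, 13.5% were called higher than in RevDKO and 17.3% higher than in Control. Hepatocyte markers were called lower for 4 of 10 against RevDKO (12.7% of all genes) and 2 of 10 against Control (18.7%). With a macrophage marker score of each library (the mean of the markers' scaled log values) as a covariate, 9 of 9 members remained called lower in both comparisons, as did 34 and 35 of 36 pairs. Without the 5 hepatocyte libraries that stood apart, the counts were 9 and 9 members and 35 and 36 pairs.

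The neighbouring genes of the pathway came from fixed lists, which were chosen with earlier results of these data known. The mevalonate arm, which supplies farnesyl units, was lower in RevScapTKO than in RevDKO hepatocytes for 8 of 8 genes (median log2 -2.80), with Fdps, which makes the farnesyl units, at -4.62 and Idi1 at -4.31. Of 4 other late sterol enzymes, 3 were lower (median -0.78), and the largest of these falls was Tm7sf2, a sterol reductase, at -3.12. Ebp, the sterol isomerase, was not called at -0.54. Of 10 genes of the SREBP machinery and sterol uptake, 7 were lower (median -1.64), including Insig1, which retains SCAP, at -4.18 and Srebf1, which encodes SREBP1, at -4.07. Of 6 LXR targets, genes that export sterols when these are abundant, 1 was called, Abcg1, which was higher by 0.42. Over all genes, 12.7% were called lower than in RevDKO and 13.5% higher. Against Control, 8 of 8 mevalonate genes and 4 of 4 late enzymes were lower, the SREBP list had 7 lower and 1 higher of 10, and the LXR targets had 2 lower and 1 higher of 6. The shares over all genes were 18.7% lower and 17.3% higher. In RevDKO minus Control hepatocytes 1 of 8 mevalonate genes was called lower (Pmvk, -0.71), 1 of 10 of the SREBP list was called higher (Insig2, 0.71), and 0 of 4 late enzymes and 0 of 6 LXR targets were called. Over all genes, 4.43% were called in either direction.

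The time of day was asked in both ways, as a change of rhythm between genotypes and as a rhythm within one. No member had a called change in its 24 h terms in RevDKO minus Control (0.203% of all genes called), in RevScapTKO minus RevDKO (0%) or in RevScapTKO minus Control hepatocytes (0.188%). Before adjustment Msmo1 had the smallest p, 0.000291 in RevScapTKO minus RevDKO (limma adjusted p = 0.554), where the difference between the genotypes swung by 2.11 on the log2 scale from peak to trough. The limma adjusted p was 0.944 for Nsdhl and for Cyp51 (unadjusted 0.0148 and 0.0274). In RevScapTKO minus Control the unadjusted p of Msmo1 was 0.0029 (limma adjusted p = 0.364).

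Within genotypes, JTK_CYCLE, a rank test for cycling, was used with an adjusted p under 0.05 and a highest ZT mean over 1.5 times the lowest. The best period also had to be 24 h rather than 18 h. Its adjusted p corrects for the periods and phases tried on 1 gene, and not for the number of genes. Each series of 4 time points was duplicated to 8, which makes these p-values smaller. In RevDKO hepatocytes 6 of 9 members were rhythmic by this rule (23% of all genes), namely Fdft1, Sqle, Cyp51, Msmo1, Nsdhl and Sc5d, all with a peak at ZT10. Their ratios of the highest to the lowest ZT mean ran from 1.68 for Fdft1 to 2.91 for Nsdhl, and the Msmo1 means differed 2.06-fold (JTK_CYCLE adjusted p = 4.249e-06). In Control hepatocytes 1 of 9 was rhythmic (21.8% of all genes), Sc5d, which peaked at ZT10 with its highest ZT mean 1.719 times the lowest (JTK_CYCLE adjusted p = 0.00351). In RevScapTKO hepatocytes 2 of 9 were rhythmic (14.2%), Msmo1 with a peak at ZT16 and a ratio of 2.28 and Nsdhl with a peak at ZT10 and a ratio of 1.89. With each series entered once, the counts were 0 in Control, 1 in RevDKO and 2 in RevScapTKO, with no share over all genes computed. By the limma F test of the 24 h terms the count was 1 in Control (Sc5d, 8.29% of all genes). It was 2 in RevDKO (Msmo1 and Nsdhl, 4.08%) and 0 in RevScapTKO (0.683%). The changes of rhythm between genotypes were the tests above, none of which was called, so the counts within genotypes are not shown to differ.

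In liver macrophage libraries all 9 members were likewise lower in RevScapTKO than in RevDKO, and 7 of 9 were lower than in Control. The falls from RevDKO ran from 2.16-fold for Fdft1 to 11.9-fold for Sqle. By limma over 13947 genes, 9 of 9 members were called lower against RevDKO (1.78% of all genes), with a median log2 difference of -2.02 against 0.04 for all genes. Against Control 7 of 9 were called lower (1.38% of all genes), with a median of -1.93 against -0.04. In the comparison of RevDKO with Control 0 of 9 were called (0.574% of all genes).

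**Figure D3:**
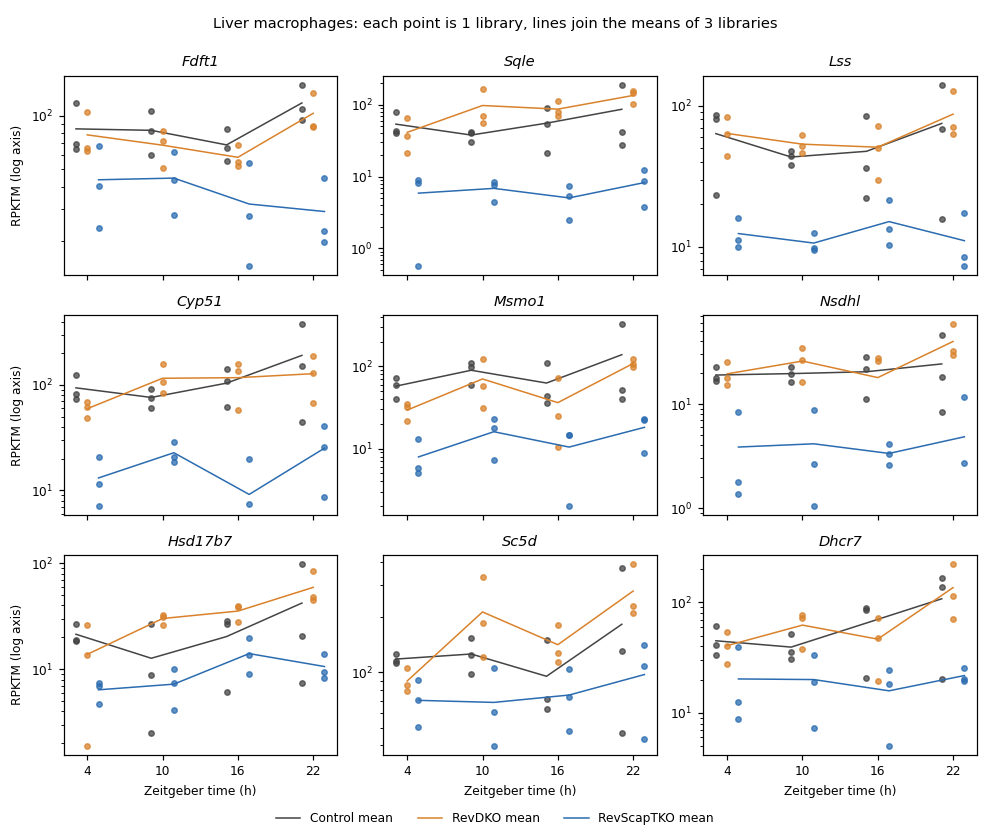
RPKTM (log axis) of the 9 members in each liver macrophage library by ZT, coloured by genotype, with lines joining the means of 3 libraries. The 3 values listed at 0 cannot be drawn on a log axis. Sqle separates RevScapTKO, at most 12.3, from Control and RevDKO, at least 21.3, whereas the genotypes overlap for Sc5d, Hsd17b7 and Fdft1.

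Sqle again showed the largest difference. Its RevScapTKO values were 0.564, 8.21 and 8.86 RPKTM at ZT4, 4.396, 7.74 and 8.40 at ZT10, 2.52, 7.29 and 5.32 at ZT16 and 8.71, 12.3 and 3.72 at ZT22. RevDKO values were 37.0, 21.3 and 65.2 at ZT4, 167, 55.2 and 69.2 at ZT10, 78.9, 70.1 and 111 at ZT16 and 155, 146 and 101 at ZT22. Every RevScapTKO library was below every library of RevDKO and of Control, where Sqle ran from 21.3 to 189. The log2 difference from RevDKO was -3.57 (SE 0.32, 11.9-fold, limma adjusted p = 1.98e-09) and that from Control was -2.90.

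Cyp51 ranged from 0 to 40.9 RPKTM in RevScapTKO macrophages (median 19.4), from 48.5 to 187 in RevDKO (95.1) and from 44.7 to 376 in Control (86.9), with no overlap. The RevScapTKO ZT16 replicate 2 library listed Cyp51 at 0. The log2 difference from RevDKO was -2.79 (limma adjusted p = 2.51e-06) and from Control -2.83.

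Lss in RevScapTKO ran from 7.28 to 21.6 (median 10.8) and in RevDKO from 29.9 to 127 (62.7), which did not overlap, whereas the Control range of 15.7 to 141 did. Msmo1 ran from 2.003 to 23.1 (13.7) in RevScapTKO, below all Control libraries (35.5 to 325) but not below all RevDKO libraries (10.4 to 122). Log2 differences were -2.26 and -1.93 for Lss and -2.02 and -2.56 for Msmo1, against RevDKO and Control in that order, all called. All 12 RevScapTKO libraries were below all 12 of RevDKO for 3 of 9 members, Sqle, Lss and Cyp51 (0.143% of all genes), and below all 12 of Control for 3 of 9, Sqle, Cyp51 and Msmo1 (0.129%).

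Nsdhl was near the floor of the table in RevScapTKO, with a median of 2.70 RPKTM, against 26.4 in RevDKO and 18.7 in Control. It was listed at 0 in RevScapTKO ZT22 replicate 1 and in RevDKO ZT16 replicate 2. The log2 differences, -2.37 and -2.33, were called in both comparisons. Dhcr7 had medians of 19.4, 62.6 and 46.3 in RevScapTKO, RevDKO and Control and was called at -1.73 and -1.56. Fdft1 had medians of 34.0, 70.4 and 83.0 and was called at -1.109 and -1.302.

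Hsd17b7 and Sc5d differed least steadily. Hsd17b7 had medians of 8.64 in RevScapTKO, 32.0 in RevDKO and 19.7 in Control and was lower than RevDKO by a log2 difference of -1.54 (limma adjusted p = 0.0116), but not called against Control at -0.86 (limma adjusted p = 0.201). Sc5d had medians of 72.1, 155 and 120, a called difference of -1.13 from RevDKO (limma adjusted p = 0.00696) and an uncalled one of -0.65 from Control (limma adjusted p = 0.156). When a hepatocyte marker score of each library was a covariate, 7 of 9 members were called against RevDKO and 7 of 9 against Control. The pair lost against RevDKO was Hsd17b7 (-0.80, limma adjusted p = 0.242) and Sc5d (-0.49, limma adjusted p = 0.273). Without the 3 macrophage libraries with the highest summed hepatocyte markers the counts were 9 and 7.

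At single time points the macrophage calls were fewer. Against RevDKO 7 of 36 pairs were called lower (0.168% of all pairs): Sqle at all 4 time points, Cyp51 at ZT16, and Fdft1 and Lss at ZT22. Against Control 4 of 36 were called lower (0.158%), Sqle at ZT4 and ZT16, Cyp51 at ZT16 and Fdft1 at ZT22. Unadjusted p-values were under 0.05 in 29 and 27 of 36 pairs. Of 13947 genes, 727 to 1416 per time point had such a p against RevDKO and 589 to 1257 against Control. In RevDKO minus Control macrophages 0 of 36 pairs were called by limma (0.0323%), and 1 had an unadjusted p under 0.05 (343 to 1641 of 13947 genes per time point). For the day mean of that comparison the log2 differences lay between -0.54 for Msmo1 (95% confidence interval -1.23 to 0.15) and 0.68 for Hsd17b7 (-0.05 to 1.41). Sqle, at 0.67 (0.0325 to 1.3105), was the 1 member with an unadjusted p under 0.05 (limma adjusted p = 0.346), as had 1934 of 13947 genes.

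The neighbouring lists were also counted in macrophage libraries. Against RevDKO 6 of 7 mevalonate genes were lower (median log2 -1.97), 3 of 4 other late sterol enzymes (-1.11), 5 of 10 of the SREBP list (-0.86) and 1 of 6 LXR targets, with Fdps at -3.28 and Srebf1 at -3.17. Over all genes, 1.78% were called lower. Against Control, 5 of 7 mevalonate genes, 1 of 4 late enzymes, 5 of 10 of the SREBP list and 1 of 6 LXR targets were lower. The share over all genes was 1.38%. Fdps and Srebf1 fell by 3.17 and 2.90. In RevDKO minus Control, Insig2 (1.18) was called in the SREBP list and no gene of the other lists (0.574% of all genes called).

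Levels in the macrophage table, which was normalized apart, are set beside hepatocyte levels as a description. The macrophage median of a member was 6.75% to 25.3% of its hepatocyte median in Control (median of the members 11.1%) and 7.90% to 24.5% in RevDKO (13.9%), and for 10 hepatocyte markers the corresponding ranges were 9.64% to 19.7% (12.5%) and 8.88% to 22.3% (15.2%). In RevScapTKO the members' share was 9.23% to 98.9% (37.7%), with Sqle at 98.9%, Fdft1 at 64.8% and Cyp51 at 45.3%, whereas the hepatocyte markers were at 5.64% to 24.3% (12.6%). The hepatocyte marker sum in macrophage libraries ran from 36698 to 829438 in RevScapTKO, from 53607 to 127415 in RevDKO and from 58757 to 2407887 in Control. In these libraries summed macrophage markers had a median of 18163 RPKTM in Control (3311 to 39958). The medians were 9281 in RevDKO (3957 to 31557) and 9986 in RevScapTKO (4978 to 31961). Of the 10 hepatocyte markers 2 were called lower in RevScapTKO macrophage libraries, Cps1 and Cyp2e1, in both comparisons (1.78% of all genes against RevDKO and 1.38% against Control). How much of the members' signal in macrophage libraries is hepatocyte RNA was not tested.

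**Figure D4:**
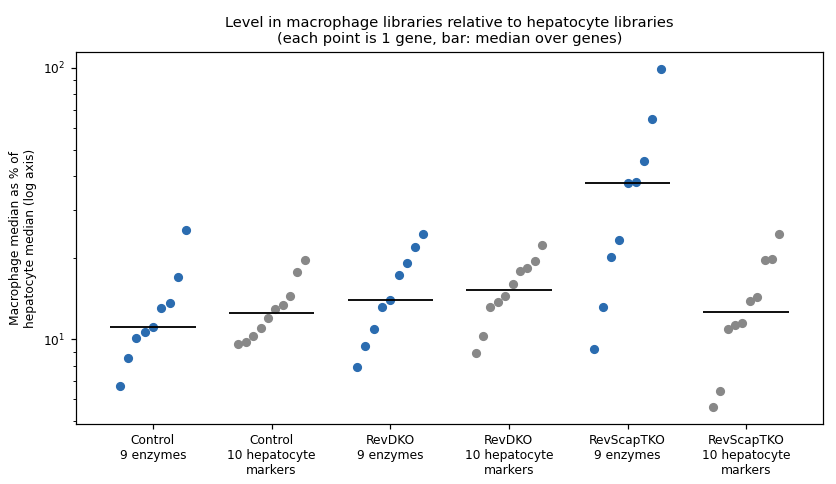
Median RPKTM of each member in macrophage libraries as a percentage of its median in hepatocyte libraries, by genotype on a log axis, beside 10 hepatocyte markers, with 1 point per gene and a bar at the median. Members and hepatocyte markers share a range in Control (6.75% to 25.3% and 9.64% to 19.7%), whereas in RevScapTKO the members reach 98.9%.

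No change in a member's 24 h terms was called in macrophages in any of the 3 comparisons (0% of all genes in each). By JTK_CYCLE 0 of 9 members were rhythmic in Control (13.3% of all genes), 1 in RevDKO (18.8%), which was Hsd17b7 with a peak at ZT22, and 0 in RevScapTKO (10.5%). With each series entered once none was rhythmic in RevDKO.

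The members varied together across libraries, and genes outside the arm varied with them. Over the 36 hepatocyte libraries of 3 genotypes, which share normalization and the genotype difference above, the genes most like the arm's mean were Fdps (Pearson r = 0.977), Mvk (0.971), Rdh11 (0.969), Mvd (0.964) and Stard4 (0.959). In the 36 macrophage libraries, genes among the 5 most like it were Acsl3 (0.903), Fads1 (0.898), Acss2 (0.883) and Elovl5 (0.873). Within a genotype, over 12 libraries, the median correlation of 36 member pairs in hepatocytes was 0.640 in Control (0.0947 to 0.9001), 0.733 in RevDKO (-0.102 to 0.938) and 0.109 in RevScapTKO (-0.766 to 0.723). In macrophages the medians were 0.734, 0.418 and 0.213. These are descriptions over libraries that also share depth and cell purity.

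ScapKO hepatocytes, with Scap deleted alone, were measured without controls in their table, so only levels within that table and its course over the day could be described. Sc5d was again the highest member (median 1376 RPKTM) and Sqle the lowest (23.2). One library, ZT22 replicate 2, held the highest value of the 12 for every one of the 9 members. It also held the highest summed macrophage, endothelial and stellate markers of the table (3562, 4826 and 2731).

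Sqle was 12.4, 24.3 and 10.9 RPKTM at ZT4, 28.1, 16.6 and 54.6 at ZT10, 22.1, 44.7 and 63.3 at ZT16 and 14.4, 466 and 14.1 at ZT22. The ZT22 replicate 2 value was 21.1 times the median of the other 11. The same ratio was 8.78 for Msmo1 (803 against at most 176), 7.71 for Cyp51 (843 against at most 156), 4.11 for Dhcr7, 4.08 for Nsdhl, 3.82 for Lss, 2.56 for Hsd17b7, 1.91 for Sc5d and 1.88 for Fdft1. Without that library the medians were 187 for Fdft1, 22.1 for Sqle, 84.1 for Lss, 109 for Cyp51, 91.5 for Msmo1, 34.5 for Nsdhl, 248 for Hsd17b7, 1366 for Sc5d and 109 for Dhcr7.

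**Figure D5:**
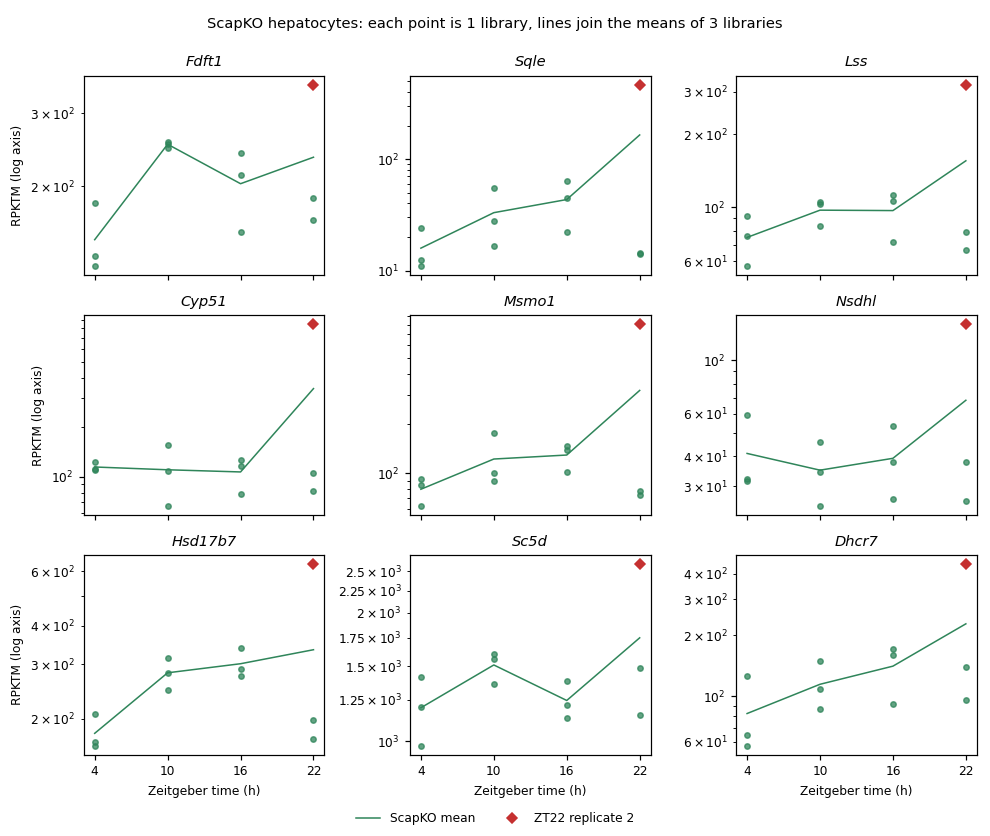
RPKTM (log axis) of the 9 members in the 12 ScapKO hepatocyte libraries by ZT, with lines joining the means of 3 libraries and ZT22 replicate 2 marked by a diamond. That library is the highest for all 9 members, at 466 for Sqle where the others reach at most 63.3.

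Over the day, 0 of 9 members had called 24 h terms in ScapKO hepatocytes by limma (1.85% of all genes, smallest adjusted p = 0.479, for Dhcr7). Without ZT22 replicate 2, 1 of 9 was called, Hsd17b7, with a peak-to-trough difference of 0.96 on the log2 scale (limma adjusted p = 0.00746, with 668 of 12625 genes called). Sqle, Msmo1 and Fdft1 then had unadjusted p-values of 0.0108, 0.0105 and 0.0109 (limma adjusted p = 0.111, 0.110 and 0.112). By JTK_CYCLE 2 of 9 were rhythmic with all libraries (14.7% of all genes), Sqle and Hsd17b7, both with a peak at ZT16, and 0 with each series entered once.

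In ScapKO macrophage libraries the members' medians ran from 32.7 RPKTM for Nsdhl to 319 for Fdft1, with 42.0 for Sqle, 34.7 for Hsd17b7, 73.4 for Lss, 73.3 for Cyp51, 77.3 for Msmo1, 93.5 for Sc5d and 94.3 for Dhcr7. The ZT22 replicate 2 library held the highest value for Sqle (191), Lss (247), Msmo1 (215), Hsd17b7 (183), Sc5d (670) and Dhcr7 (199), but not for Fdft1, Cyp51 or Nsdhl. Its summed macrophage markers were the lowest of the table (23009) and its hepatocyte markers the highest (139708). By limma 0 of 9 members had called 24 h terms (0% of all genes), also without that library, and by JTK_CYCLE 0 of 9 were rhythmic (15.7% of all genes).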

How the data were processed

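Total RNA had been depleted of ribosomal RNA and sequenced by the authors, who aligned reads to mm9 with STAR and measured RefSeq transcripts with HOMER, with versions not given in the sources used here. The deposited values are RPKM multiplied by 10 (RPKTM), quantile normalized by the authors within each of 4 tables, so the libraries of a table share 1 set of values, depth is unknown and tests stayed within a table. Whether counting used strand is not given, so overlapping antisense reads could be included.

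Genes were kept with at least 5 RPKTM in at least 3 libraries, and all 9 members passed in all 4 tables (13326, 13947, 12724 and 13930 genes). limma 3.58.1 (R 4.3.3) with a mean-dependent variance was fitted to log2(RPKTM + 1) over the 12 groups of a table of 3 genotypes, and p-values were adjusted by Benjamini-Hochberg over all genes tested at a threshold of 0.05. The pseudocount understates changes of low genes. Rhythm used 24 h sine and cosine terms and JTK_CYCLE, rewritten in Python 3.11.15 with its exact null. The scripts were tested on simulated data. Alternatives were the pseudocount, the filter, the genotypes fitted, marker covariates, leaving out libraries and a replicate block. Same-numbered libraries of different genotypes at a ZT were slightly more alike than differently numbered ones. The median correlation of their deviations was 0.0484 against -0.029 in hepatocytes and 0.0877 against -0.046 in macrophages. It was over 0.1 in 13 of 36 against 7 of 72 pairs and in 15 of 36 against 7 of 72. The main fit did not use the replicate numbers, and the replicate block did. Named genes were the 9 members, called genes of the fixed lists with the largest changes, and the 5 genes most correlated with the members' mean. Some genes that this rule names are not reported here. Members and lists were chosen with earlier results of these data known.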

Additional observations from a re-analysis of the deposited data

How the results depend on the processing

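The members' calls in hepatocytes held under every alternative: 9 of 9 were lower in RevScapTKO in both comparisons, with 35 to 36 pairs when single libraries were left out. Calls at single time points in macrophages moved. For RevScapTKO minus Control they were 4 with all libraries, 7 with a pseudocount of 10, 2 without the filter and 2 with only the 2 genotypes fitted, and 3 to 11 without single libraries (11 without Control ZT22 replicate 1, 7 without RevScapTKO ZT16 replicate 2), while the day means gave 7 to 8. For RevScapTKO minus RevDKO they were 4 to 9 (4 without RevDKO ZT22 replicate 2 or RevScapTKO ZT22 replicate 1), and for RevDKO minus Control 0 to 1 (1 without Control ZT22 replicate 3).

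Counts of rhythmic members by JTK_CYCLE moved in every table. With each series entered once they were 0 in Control, 1 in RevDKO and 0 in ScapKO hepatocytes and 0 in RevDKO macrophages. By the limma F test they were 2 in RevDKO (4.08% of all genes), 0 in RevScapTKO (0.683%) and 0 in ScapKO hepatocytes (1.85%). In RevDKO macrophages that count was 0 (2.53%). Without single libraries they ran from 1 to 3 in Control (3 without ZT10 replicate 3, 2 without ZT16 replicate 3), 4 to 7 in RevDKO, 2 to 3 in RevScapTKO and 0 to 4 in ScapKO hepatocytes (0 without ZT4 replicate 1 or 3, 4 without ZT16 replicate 1). In macrophages they ran from 0 to 2 in Control (2 without ZT22 replicate 1), 0 to 2 in RevDKO, 0 to 1 in RevScapTKO and 0 to 1 in ScapKO. The called 24 h terms in ScapKO hepatocytes were 0 to 1 (1 without ZT22 replicate 2).

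Leaving out the libraries that stood apart was chosen after seeing the data. The replicate block gave 0, 9 and 9 members in hepatocytes (RevDKO minus Control, RevScapTKO minus RevDKO, RevScapTKO minus Control) with 0, 36 and 36 pairs. In macrophages it gave 0, 9 and 7 members with 0, 9 and 6 pairs. Uncalled differences of RevDKO minus Control changed sign in a few cases. In macrophages Dhcr7 went to -0.003924 with the covariate and -0.23 without the libraries that stood apart, and Nsdhl to -0.21 with a pseudocount of 0.1 and -0.19 without those libraries. Without single libraries Dhcr7 ranged over -0.0915 to 0.0445, Nsdhl over -0.0696 to 0.113 and Cyp51 over -0.165 to 0.119 in hepatocytes, and Dhcr7 over -0.0603 to 0.309, Nsdhl over -0.166 to 0.439 and Cyp51 over -0.235 to 0.146 in macrophages. The cause was not tested for any of these. Depth is unknown, so low values, such as Nsdhl and Sqle in RevScapTKO, have no counting error attached.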
